A study of Homo sapiens with 12 samples.

Results

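The p53 family and its direct negative regulators were followed here through 5 genes, TP73, MDM2, MDM4, PPM1D and USP7, which were chosen by name from 60617 gene identifiers in the count files and of which all 5 were among the 15692 genes with enough counts for testing. The RNA came from HCT 116p53-/- cells, which are human colon carcinoma cells with a deleted p53 gene, and from cells that the labels call HCT 116p53-/-RPL3 KO, RPL3 being the gene of the ribosomal protein uL3. The study describes a line named uL3ΔHCT 116p53-/- as a derivative stably silenced for uL3. Both lines were treated with vehicle or with 5 nM Act D, an inhibitor of rRNA synthesis by RNA polymerase I at low dose, for 24 h. Each of the 4 groups had 3 libraries, which the labels call biological replicates without saying whether they are separate cultures, so that the p-values measure the spread between these libraries. All 4 groups lack functional p53 by design, and the RPL3 KO label stands for a single stably modified line. RPL3 CPM were not lower under that label, and most epithelial markers tested were lower. The study itself reports an up-regulated epithelial-mesenchymal transition gene set in Act D-treated uL3-depleted cells against treated parental cells. These libraries are named by their label only, and whether they derive from HCT 116p53-/- cells was not tested. An effect of uL3 cannot be told apart from any other difference between the lines.

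TP73 encodes p73, a transcription factor that recognizes the same DNA element as p53. MDM2 is the ubiquitin ligase that marks p53 for degradation and MDM4 is its non-catalytic partner, which masks the activation domain of p53. PPM1D encodes Wip1, a phosphatase that removes activating phosphates from p53 and its kinases, and USP7 is a deubiquitinase that stabilizes MDM2 as well as p53. MDM2 and PPM1D are themselves textbook target genes of p53, and MDM2 is the protein that binds free ribosomal proteins when the nucleolus is disturbed.

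MDM2 and TP73 are each read from an upstream promoter (promoter 1) and an internal promoter (promoter 2) that is known to answer to p53 family proteins. Their RefSeq windows (GRCh38.p14, 250 bases before to 50 after a start, plus strand for both genes) are shown because these are the sequences through which a p53 family member could act on the family itself. A site was defined as 2 adjacent p53 family half-sites of 10 bases with at most 1 mismatch in each, searched on both strands, a tolerance chosen with the textbook sites of these genes known. Capitals mark the site, and stretches with more mismatches are left unmarked. The promoter 1 windows are chr12:68807922-68808221 for MDM2 and chr1:3652266-3652565 for TP73, and the promoter 2 windows are chr12:68808767-68809066 and chr1:3690422-3690721.
MDM2 promoter 1: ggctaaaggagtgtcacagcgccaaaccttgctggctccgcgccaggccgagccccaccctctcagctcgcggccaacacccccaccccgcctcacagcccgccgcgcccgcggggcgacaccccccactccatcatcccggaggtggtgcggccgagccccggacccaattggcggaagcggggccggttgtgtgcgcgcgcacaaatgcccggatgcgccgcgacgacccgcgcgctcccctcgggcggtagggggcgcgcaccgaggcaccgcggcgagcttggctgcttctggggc
MDM2 promoter 2: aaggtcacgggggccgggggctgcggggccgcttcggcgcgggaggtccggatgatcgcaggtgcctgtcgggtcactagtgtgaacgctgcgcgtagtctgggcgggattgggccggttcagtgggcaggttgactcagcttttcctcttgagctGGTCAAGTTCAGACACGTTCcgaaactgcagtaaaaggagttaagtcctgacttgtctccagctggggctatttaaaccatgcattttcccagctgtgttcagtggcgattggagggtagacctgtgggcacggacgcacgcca
TP73 promoter 1: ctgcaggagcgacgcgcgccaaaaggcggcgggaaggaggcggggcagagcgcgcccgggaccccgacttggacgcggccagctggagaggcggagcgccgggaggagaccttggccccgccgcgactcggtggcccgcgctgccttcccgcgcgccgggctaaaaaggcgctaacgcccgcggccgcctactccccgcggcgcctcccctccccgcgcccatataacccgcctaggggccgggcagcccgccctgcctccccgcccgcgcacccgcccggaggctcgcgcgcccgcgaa
TP73 promoter 2: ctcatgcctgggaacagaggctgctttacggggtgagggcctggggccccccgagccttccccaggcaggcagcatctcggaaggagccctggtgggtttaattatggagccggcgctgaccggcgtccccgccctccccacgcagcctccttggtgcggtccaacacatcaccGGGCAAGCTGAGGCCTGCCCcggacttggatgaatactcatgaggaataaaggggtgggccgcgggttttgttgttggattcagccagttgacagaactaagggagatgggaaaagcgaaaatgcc
Counted from the start, the MDM2 site begins at -94 of promoter 2 and the TP73 site at -76 of its promoter 2. No site met the definition in either promoter 1 window, nor in any window of MDM4, PPM1D or USP7. Of 34943 promoter windows of the same length in the genome, 136 (0.389%) held such a site and 6 held one with no mismatch. A match of this kind is a description of the letters, and binding was not measured.

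Only 1 library, replicate 2 of vehicle-treated HCT 116p53-/- cells, was deposited per transcript, and only there could counts be assigned to transcript starts. There, 74.1% of the MDM2 count was assigned by RSEM to transcripts that start at promoter 1 and 23.6% to transcripts that start at promoter 2. Per length, as TPM, promoter 1 had 32.6%, promoter 2 had 41.5% and other starts had 25.8% of MDM2. A single promoter 1 transcript of 12632 bases held 2965 MDM2 counts, and the promoter 2 transcript with most counts had 2523 bases. The shares therefore depend on the annotated transcript lengths and are not a measure of promoter use. For TP73, 81.0% of the count was assigned to promoter 1 and 17.8% to promoter 2. The promoter 2 share is 1 transcript with a count of 50.4 and an RSEM posterior SD of 37.7. How these shares moved with Act D or between the lines was not analysed here, since the other 11 libraries hold 1 value per gene.

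The libraries held between 10087925 and 21138886 counts. The CPM of RPL3 were not lower in the libraries labelled RPL3 KO: it had 1138 ± 15.3 CPM (read counts scaled to a common library size, SD, n = 3) in vehicle-treated HCT 116p53-/- cells and 1243 ± 82.5 CPM with vehicle in those labelled RPL3 KO, a log2 difference of 0.13 (edgeR's quasi-likelihood test, adjusted p = 0.155). The difference was -0.11 with library-size scaling and did not pass the test there either. The deposited TPM of RPL3 were lower in the RPL3 KO-labelled libraries with vehicle, at 641, 545 and 583 against 826, 719.9 and 781, and did not overlap. TP63, which encodes the family member p63, had 0 to 3 counts in each of the 12 libraries and was not tested. Among the epithelial and intestinal markers, CDH1 and CDX2 were near 0 in the libraries labelled RPL3 KO. CDH1 had 0.445 CPM there with vehicle against 66.8 CPM in HCT 116p53-/- cells, and CDX2 had 0.177 against 14.8 CPM. EPCAM was at 35.5 against 153 CPM, whereas KRT18 was higher, at 840 against 605 CPM. Of 11 epithelial markers tested 9 were lower and 1 was higher, and the sum of all 14 listed was between 2622 and 2830 CPM in vehicle-treated HCT 116p53-/- cells and between 1608 and 1806 CPM in the other line. The sum of 13 mesenchymal markers was between 117 and 136 CPM and between 2863 and 2873 CPM in the same order, of which VIM held a mean of 22.0 and 2237 CPM. Of 10 mesenchymal markers tested 8 were higher and 1 was lower. Mitochondrial genes held 7.98% to 9.51% of counts with vehicle and 10.5% to 12.2% with Act D in HCT 116p53-/- cells, and 4.57% to 6.28% and 7.10% to 9.83% in the other line. Replicate 1 of the Act D-treated libraries labelled RPL3 KO stood apart from replicates 2 and 3 of its group, with a chi-square per degree of freedom over genes of 108 and 62.8 against 13.0 between the other 2, and it had the 9.83% mitochondrial share. The vehicle-treated libraries of that label also differed, at 36.9, 23.6 and 56.5, and pairs of HCT 116p53-/- libraries were between 7.27 and 29.3. This measure also grows with depth, and replicate 1 had 14416343 counts against 10352030 and 10087925. The part of these markers and shares in the results for the 5 genes was not tested. In bulk RNA, fewer cells of a type and less RNA per cell cannot be told apart.

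With vehicle, all 5 genes were lower in the libraries labelled RPL3 KO than in HCT 116p53-/- cells. TP73 differed most, with an 8.28-fold lower level, followed by MDM2 (2.90-fold) and MDM4 (2.79-fold), and PPM1D (1.54-fold) and USP7 (1.36-fold) differed least. The background to this count is wide: 71.3% of all genes tested differed between the lines, 36.2% lower and 35.1% higher, or 44.4% and 26.8% with library-size scaling, so that being lower is not by itself particular to these genes.

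TP73 had 15.8, 19.5 and 18.96 CPM in the 3 vehicle-treated HCT 116p53-/- libraries and 1.85, 2.15 and 2.50 CPM in the 3 labelled RPL3 KO. The highest library of one line was far below the lowest of the other, and the log2 difference was -3.05 (SE 0.18, adjusted p = 6.93e-11). MDM2 had 326, 294 and 310.0 CPM in HCT 116p53-/- cells and was at 116, 99.3 and 106 CPM in the other line, a log2 difference of -1.54 (SE 0.09, adjusted p = 9.32e-11). MDM4, which had 83.9, 75.2 and 96.6 CPM, was at 34.4, 27.2 and 30.5 CPM, a log2 difference of -1.48 (SE 0.11, adjusted p = 1.23e-09). For both genes the lines did not overlap.

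PPM1D was at 27.3, 32.6 and 35.2 CPM in the vehicle-treated libraries labelled RPL3 KO, against 51.7, 47.8 and 47.6 CPM in the other line (log2 difference -0.63, SE 0.10, adjusted p = 1.23e-05). USP7 was at 167, 135 and 134 CPM, against 198, 192 and 202 CPM in HCT 116p53-/- cells (log2 difference -0.44, SE 0.09, adjusted p = 0.000288). For both genes the groups did not overlap, although 1 library labelled RPL3 KO, replicate 1, was the lowest for PPM1D and the highest for USP7. All 5 members had groups that did not overlap, beside 72.5% of all genes tested.

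Act D moved the 5 genes of HCT 116p53-/- cells in both directions. MDM2 (1.89-fold) and PPM1D (2.02-fold) rose, whereas TP73 (2.79-fold), MDM4 (1.36-fold) and USP7 (1.29-fold) fell. In all 18.7% of the genes tested were past the threshold. The 2 that rose stand beside 7.59% of all genes that rose, and the 3 that fell beside 11.1% that fell. With the upper-quartile scaling these shares were 9.43% and 9.68%, and with library-size scaling 3.51% and 14.7%, and the direction of all 5 members was kept.

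MDM2 rose from 326, 294 and 310.0 CPM with vehicle to 578, 551 and 629 CPM with Act D in HCT 116p53-/- cells. The log2 fold change was 0.92 (95% interval 0.72 to 1.11, adjusted p = 2.6e-06). PPM1D rose from 51.7, 47.8 and 47.6 CPM to 100.4, 92.4 and 104 CPM (log2 1.01, 95% interval 0.82 to 1.21, adjusted p = 1.02e-06). Each gene's lowest treated library was well above its highest vehicle library.

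TP73 dropped from 15.8, 19.5 and 18.96 CPM to 5.86, 7.84 and 5.71 CPM in the same cells, a log2 change of -1.48 (95% interval -1.82 to -1.14, adjusted p = 5.96e-06). Of all genes tested, 0.918% had a lower log2 fold change than TP73. MDM4 dropped from 83.9, 75.2 and 96.6 CPM to 65.5, 57.0 and 65.0 CPM (log2 -0.45, 95% interval -0.67 to -0.23, adjusted p = 0.00632). USP7 dropped from 198, 192 and 202 CPM to 146, 149 and 166 CPM (log2 -0.36, 95% interval -0.55 to -0.17, adjusted p = 0.00977). Leaving out replicate 1 of the Act D-treated cells ended the call for USP7, at a log2 change of -0.33 and an adjusted p of 0.0598. In HCT 116p53-/- cells the groups of all 5 genes did not overlap, as was true of 38.2% of all genes tested.

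**Figure D1:**
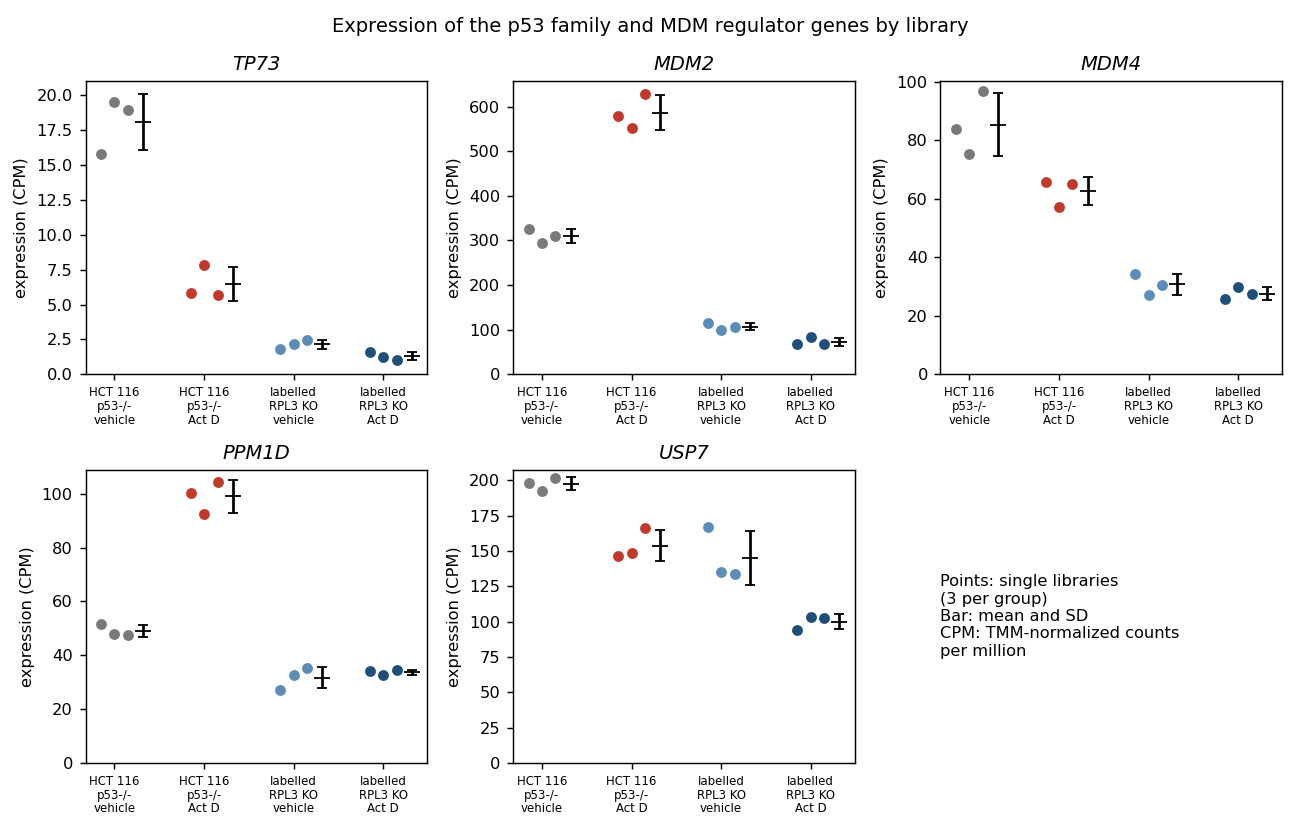
Expression of the 5 genes in CPM in each library of the 4 groups, each axis starting at 0, with single libraries as points and the mean and SD beside them. MDM2 and PPM1D are highest in Act D-treated HCT 116p53-/- cells, at 551 to 629 CPM and 92.4 to 104 CPM, and TP73 is highest in the vehicle-treated ones, at 15.8 to 19.5 CPM.

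In the libraries labelled RPL3 KO, Act D lowered MDM2 and USP7. No member rose, and 0 were higher at an unadjusted p under 0.05 in edgeR's quasi-likelihood or likelihood-ratio test or in DESeq2. TP73, MDM4 and PPM1D did not pass the test. Of all genes tested 11.9% were past the threshold in this line, 8.4% lower and 3.51% higher (6.45% and 6.02% with upper-quartile scaling, 11.8% and 1.45% with library-size scaling).

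MDM2 had 116, 99.3 and 106 CPM with vehicle and 67.6, 83.3 and 67.9 CPM with Act D in this line. The change was -0.55 on the log2 scale (95% interval -0.76 to -0.35, adjusted p = 0.00093), opposite in sign to that in HCT 116p53-/- cells. USP7 was lowered from 167, 135 and 134 CPM to 93.8, 104 and 102 CPM (log2 -0.54, 95% interval -0.73 to -0.34, adjusted p = 0.00086). The treated libraries of both genes lay below all vehicle libraries. Without replicate 1 of the treated libraries, which stood apart, MDM2 was at -0.50 (adjusted p = 0.00903) and USP7 at -0.50 (adjusted p = 0.0078).

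PPM1D had 27.3, 32.6 and 35.2 CPM with vehicle and 34.0, 32.7 and 34.4 CPM with Act D, and these ranges overlapped. Its log2 difference was 0.09, with an interval from -0.12 to 0.29 that does not reach the 1.01 seen in HCT 116p53-/- cells (adjusted p = 0.64). MDM4, at 34.4, 27.2 and 30.5 CPM against 25.7, 29.8 and 27.4 CPM, overlapped too (log2 difference -0.15, 95% interval -0.40 to 0.09, adjusted p = 0.454). TP73 had 1.85, 2.15 and 2.50 CPM against 1.60, 1.26 and 1.04 CPM, which did not overlap, as was the case for 27.6% of all genes tested, but the log2 difference of -0.70 (95% interval -1.25 to -0.15) did not pass the test across genes (adjusted p = 0.0951). The 6 TP73 values of this line rest on counts of 23, 43 and 37 with vehicle and 22, 11 and 9 with Act D.

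The responses of the lines to Act D were compared directly by the interaction term of the model. For MDM2 the log2 response in the libraries labelled RPL3 KO minus that in HCT 116p53-/- cells was -1.47 (95% interval -1.75 to -1.19, adjusted p = 1.48e-05), and MDM2 was rank 3 of 15692 genes by p. PPM1D was at -0.93 (95% interval -1.21 to -0.64, adjusted p = 0.000721), rank 52. Without the Act D-treated library that stood apart, MDM2 was at -1.42 (adjusted p = 0.000101) and PPM1D at -0.94 (adjusted p = 0.00309), while the interaction calls over all genes went from 1025 to 614. These 2 of 5 members stand beside 6.53% of all genes past the threshold, 3.23% with a lower and 3.3% with a higher response. For TP73 (0.78, 95% interval 0.12 to 1.45, adjusted p = 0.156), MDM4 (0.30, 95% interval -0.04 to 0.63, adjusted p = 0.294) and USP7 (-0.18, 95% interval -0.45 to 0.10, adjusted p = 0.47) a difference between the responses was not shown.

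**Figure D2:**
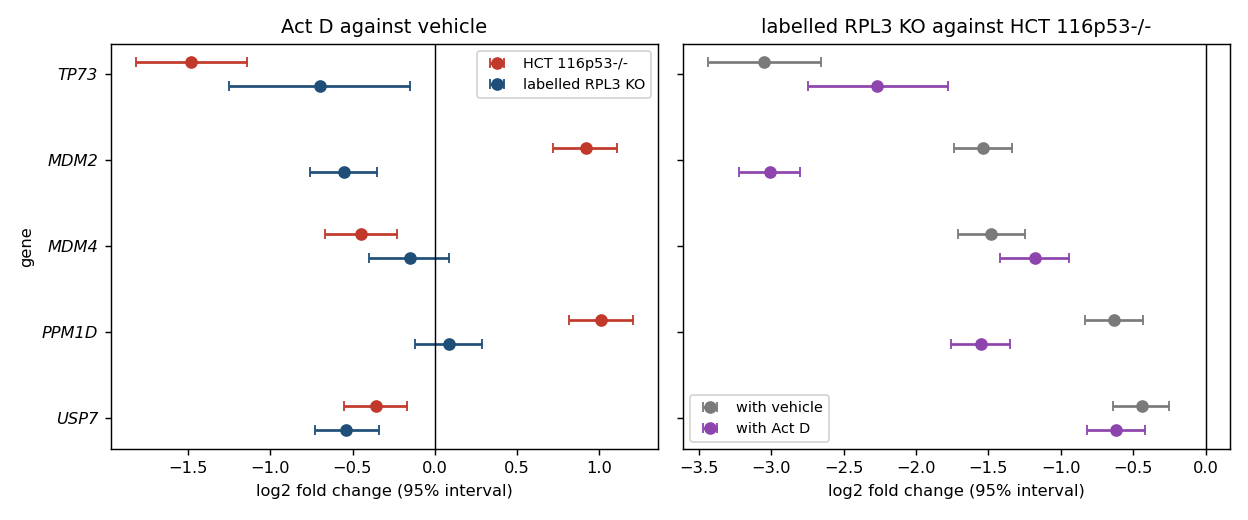
Log2 fold changes of the 5 genes with 95% intervals, for Act D against vehicle in each line (left) and for the 2 lines against each other under each treatment, with HCT 116p53-/- cells as the reference (right). The MDM2 intervals of the 2 lines lie on opposite sides of 0 on the left, from 0.72 to 1.11 and from -0.76 to -0.35, and all intervals on the right lie below 0.

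With Act D in both lines, all 5 genes were again lower in the libraries labelled RPL3 KO. Of all genes tested 70.4% differed, 35.3% lower and 35.1% higher, or 43.5% and 27.0% with library-size scaling. This comparison shares its libraries with those above. MDM2 differed most, with 551 CPM as its lowest value in HCT 116p53-/- cells and 83.3 CPM as its highest in the other line (log2 -3.01, SE 0.10, adjusted p = 3.4e-14). TP73 was at -2.27 (adjusted p = 8.61e-08), PPM1D at -1.55 (adjusted p = 1.22e-10), MDM4 at -1.18 (adjusted p = 4.78e-08) and USP7 at -0.62 (adjusted p = 1.12e-05). In the Act D groups 74.1% of all genes tested did not overlap between the lines, and neither did any of the 5. Without the library that stood apart, these differences were between -2.95 for MDM2 and -0.58 for USP7, and all 5 passed the test.

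Since MDM2 and MDM4 act as a pair, the ratio of their counts was taken within each library, which no scaling can change. In vehicle-treated HCT 116p53-/- cells it was 3.88, 3.91 and 3.21, and with Act D it was 8.83, 9.67 and 9.68. In the libraries labelled RPL3 KO it was 3.37, 3.65 and 3.46 with vehicle and 2.63, 2.79 and 2.48 with Act D. The ranges of the lines overlapped with vehicle and were far apart with Act D. The ratio of MDM2 to USP7 counts was 1.65, 1.53 and 1.54 with vehicle and 3.96, 3.71 and 3.79 with Act D in HCT 116p53-/- cells. It was 0.693, 0.737 and 0.790 against 0.720, 0.804 and 0.664 in the other line, where vehicle and Act D overlapped. The ratio of PPM1D to USP7 was higher with Act D in both lines, at 0.261, 0.248 and 0.236 against 0.687, 0.621 and 0.628 in HCT 116p53-/- cells and at 0.164, 0.242 and 0.263 against 0.363, 0.315 and 0.336 in the other. With Act D, PPM1D rose and USP7 fell in HCT 116p53-/- cells (log2 1.01 and -0.36). In the other line USP7 fell (log2 -0.54) and PPM1D did not pass the test (log2 0.09). The ratios are given as a description, with no test.

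**Figure D3:**
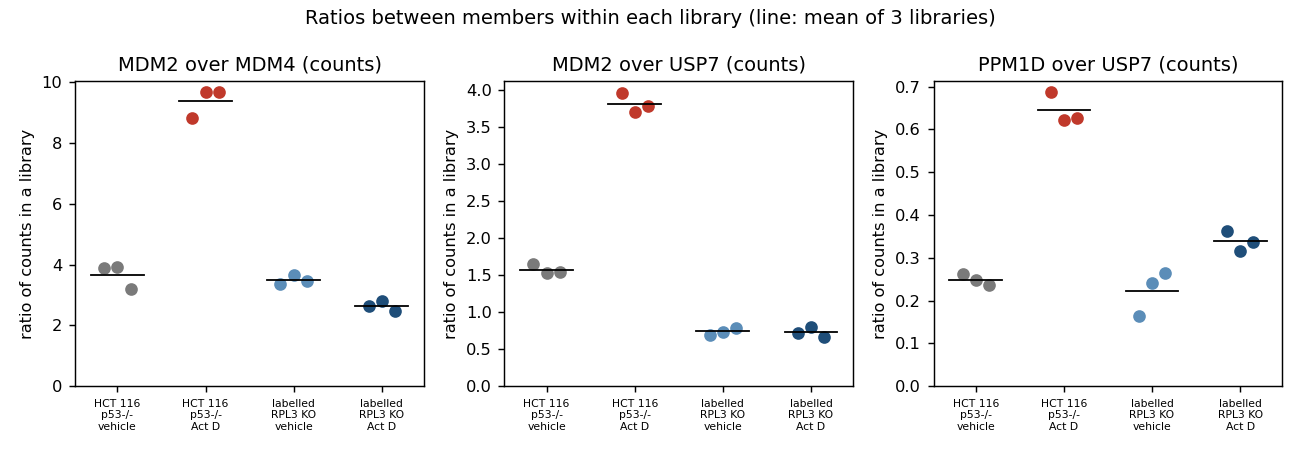
Ratios of raw counts between members in each library, on axes that start at 0, with points for libraries and a line for the mean of 3. MDM2 over MDM4 is between 3.21 and 3.91 in all vehicle libraries, between 8.83 and 9.68 in Act D-treated HCT 116p53-/- cells and between 2.48 and 2.79 in Act D-treated libraries labelled RPL3 KO.

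Levels of the genes were compared with each other per length, as the deposited TPM in percent of that of MDM2 in the same library. In vehicle-treated HCT 116p53-/- cells MDM2 was highest, followed by USP7 at 63.8% ± 4.19 (SD, n = 3), PPM1D at 16.3% ± 0.844, MDM4 at 15.4% ± 1.81 and TP73 at 4.47% ± 0.725, and the ranges of PPM1D and MDM4 overlapped. With Act D the others stood lower against MDM2, with USP7 at 26.4%, MDM4 at 6.72% and TP73 at 0.864%, while PPM1D was at 16.2%. In the libraries labelled RPL3 KO with vehicle USP7 was above MDM2, at 143% ± 31.1, with PPM1D at 31.7%, MDM4 at 18.5% and TP73 at 2.09%. With Act D in that line USP7 was between 93.4% and 117% of MDM2, a range that includes equal levels.

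The nearest expression patterns were sought among genes with a mean of at least 5 CPM, by Pearson's r of log2(CPM + 1) over the 12 libraries. These libraries fall into 4 groups, so that r mostly describes the order of 4 group levels. PPM1D was nearest to CDKN1A (r = 0.989), the cyclin-dependent kinase inhibitor p21, then to the death receptor gene FAS (0.972) and to POLH (0.970), a translesion DNA polymerase, all 3 of them known p53 target genes. MDM2 was nearest to KLHL42 (0.992), to a processed pseudogene inside MDM2 itself (0.992) and to ZNF484 (0.990). TP73 was nearest to FRMD5 (0.990), UHRF1 (0.988) and TMEM131L (0.988), MDM4 to MRTFB (0.994), PRR14L (0.992) and SPIN1 (0.990), and USP7 to PUM2 (0.985), TAOK1 (0.984) and PMM2 (0.983). Among the members themselves r was 0.918 for MDM2 and PPM1D and 0.949 for TP73 and MDM4, and lowest, 0.371, for PPM1D and USP7.

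Some of these genes share their locus with other transcripts, and whether the counting used strand is not given in the sources used here. TP73 (ENSG00000078900, chr1:3652516-3736201, plus strand) overlaps WRAP73 by 246 bases and the antisense RNA TP73-AS1 by 691 bases. WRAP73, on the opposite strand, averaged 39.1 CPM (vehicle) and 23.5 CPM (Act D) in HCT 116p53-/- libraries. Its means in the RPL3 KO-labelled libraries were 15.7 CPM (vehicle) and 16.0 CPM (Act D). Whether WRAP73 reads entered the TP73 count was not tested. The WRAP73 mean fell under Act D in HCT 116p53-/- cells and was lower in the other line, as for TP73. TP73-AS1 went the other way between the lines, with 0.255 CPM in vehicle-treated HCT 116p53-/- cells but 18.1 CPM with the RPL3 KO label (log2 difference 6.09, adjusted p = 2.9e-13). MDM2 (ENSG00000135679, chr12:68808177-68845544, plus strand) holds the pseudogene ENSG00000256664, with 13.5, 29.7, 4.63 and 2.50 CPM in the groups in the order vehicle and Act D of HCT 116p53-/- cells and then of the other line. That pseudogene overlaps 439 bases of MDM2 on the same strand, so that reads could be split between them. MDM4 (ENSG00000198625, chr1:204516379-204558120, plus strand), PPM1D (ENSG00000170836, chr17:60600193-60666280, plus strand) and USP7 (ENSG00000187555, chr16:8892097-8975328, minus strand) overlap only genes with at most 0.161 CPM in any library.

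A list of 43 p53 target genes, which holds none of the 5 members, was set beside MDM2 and PPM1D. In HCT 116p53-/- cells Act D raised 30 of them (69.8%, beside 7.59% of all genes) and lowered 2, with a median log2 fold change of 0.47 beside 0.02 for all genes. In the libraries labelled RPL3 KO it raised 8 (18.6%, beside 3.51% of all genes) and lowered 5 (beside 8.4%), with a median of 0.16 beside 0.03. All 8 raised in that line were among the 30 raised in HCT 116p53-/- cells, which is 26.7% of the 30. The interaction was past the threshold for 22 of the 43, beside 6.53% of all genes, with a lower response in the libraries labelled RPL3 KO for 20 and a higher one for 2.

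CDKN1A went from 162 ± 10.0 to 554 ± 28.1 CPM (SD, n = 3) with Act D in HCT 116p53-/- cells (log2 1.77, adjusted p = 4.02e-10) and had 74.3 ± 2.15 and 86.4 ± 4.01 CPM in the other line, with an interaction of -1.56 (adjusted p = 1.06e-06). TNFRSF10B, a death receptor gene, went from 125 to 235 CPM and had 178 and 156 CPM (interaction -1.10, adjusted p = 1.62e-05). SESN2, a stress-induced regulator of mTORC1, went from 15.3 to 40.6 CPM and from 36.1 to 24.5 CPM (interaction -1.95, adjusted p = 1.62e-05). SESN2, AEN, TRIAP1 and LIF were the 4 targets that rose in HCT 116p53-/- cells and fell in the other line, as MDM2 did. XPC, a DNA damage sensor, and PMAIP1, which encodes the pro-apoptotic protein NOXA, rose in the libraries labelled RPL3 KO (log2 0.71 and 0.56, adjusted p = 9.87e-05 and 0.00222).

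**Figure D4:**
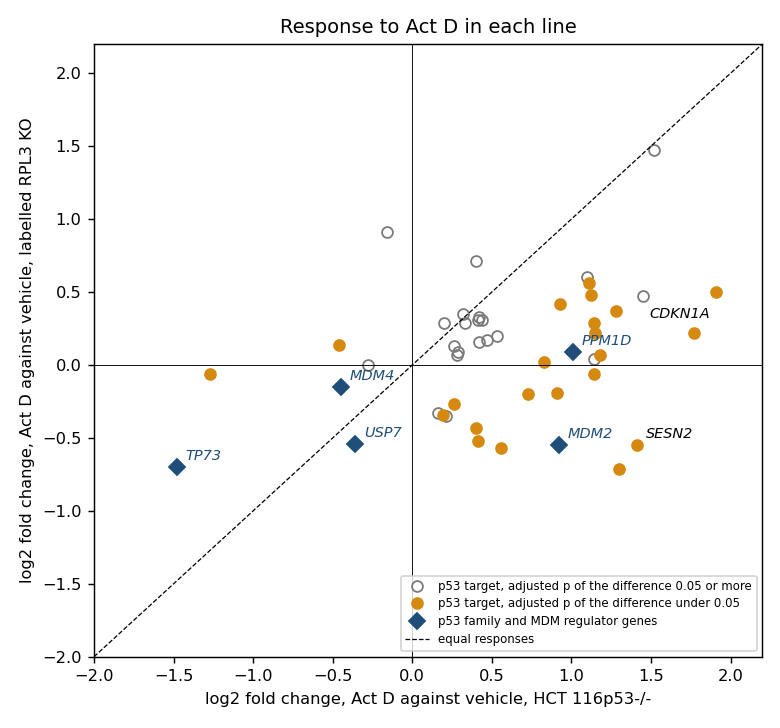
Log2 fold change with Act D in HCT 116p53-/- cells (horizontal) and in the libraries labelled RPL3 KO (vertical) for 43 p53 target genes (circles, filled where the difference between the lines passed the test) and the 5 family and regulator genes (diamonds), with a dashed line for equal responses. MDM2, at 0.92 and -0.55, and SESN2, at 1.41 and -0.55, lie right of 0 and below it, and PPM1D, at 1.01 and 0.09, lies near the horizontal line of no change.

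A further list held 27 genes of ribosomal, nucleolar and ribosome assembly proteins. Many are reported to bind MDM2, but the list is not limited to binders and includes SBDS, HEATR3, RRS1 and MYBBP1A. Of the 27, 20 were higher and 6 lower in the vehicle-treated RPL3 KO-labelled libraries (35.1% and 36.2% of all genes). The median log2 difference was 0.60 beside -0.02 for all genes. RPS27A, RPS14 and RPL37, of the small and the large ribosomal subunit, had the smallest p. They were higher in the RPL3 KO-labelled libraries, at 1529, 1173 and 1161 CPM, against 613, 480.5 and 455 CPM in HCT 116p53-/- cells. Act D raised 2 and lowered 2 of the 27 in each line, beside 7.59% and 11.1% of all genes in the HCT 116p53-/- libraries and 3.51% and 8.4% in those labelled RPL3 KO, among them SBDS, a ribosome maturation factor, which was higher in both (log2 0.53 and 0.29, adjusted p = 0.000624 and 0.0446). The SBDS call in the RPL3 KO-labelled libraries was lost in 8 of 12 fits with single libraries left out. The response to Act D passed the test of a difference between the lines for 0 of the 27 by edgeR's quasi-likelihood test, the likelihood-ratio test and DESeq2. An unadjusted p under 0.05 was found for 2, 3 and 5 of the 27 in these tests, in that order.

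Among 35 other genes of ubiquitin ligases, deubiquitinases and their partners that act on p53 or MDM proteins, 14 were higher and 15 lower with vehicle in RPL3 KO-labelled libraries, beside 35.1% and 36.2% of all genes, and the median log2 difference was -0.07. USP48, which had the smallest p, was at 7.58 CPM against 46.9 CPM in HCT 116p53-/- cells (log2 -2.63, adjusted p = 3.89e-11). Act D raised 5 and lowered 4 in HCT 116p53-/- cells, beside 7.59% and 11.1% of all genes, and raised 1 and lowered 7 in the other line, beside 3.51% and 8.4%. The median log2 responses were 0.01 and -0.03. COP1, a ubiquitin ligase of p53, was lowered in both, from 30.9 to 16.5 CPM (adjusted p = 1.84e-05) and from 37.5 to 27.3 CPM (adjusted p = 0.01). The interaction passed for 2 of the 35, beside 6.53% of all genes, FBXW7 (-0.65, adjusted p = 0.00852) and OTUD5 (-0.49, adjusted p = 0.0363). With single libraries left out, the OTUD5 call was lost in 9 of 12 fits and the FBXW7 call in 0.

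Of 30 genes of kinases and phosphatases that act on p53 or MDM proteins, the group to which PPM1D belongs by function, 13 were higher and 11 lower with vehicle in RPL3 KO-labelled libraries (35.1% and 36.2% of all genes), with a median log2 difference of 0.11. Act D raised 3 and lowered 5 in HCT 116p53-/- cells (7.59% and 11.1% of all genes) and raised 1 and lowered 8 in the other line (3.51% and 8.4%), with median log2 responses of 0.01 and -0.13. CSNK1A1, casein kinase 1 alpha, which binds MDM4, fell in the RPL3 KO-labelled libraries from 417 to 299 CPM (log2 -0.48, adjusted p = 0.000456). The interaction passed for 6 of the 30, with 2 higher and 4 lower, beside 3.3% and 3.23% of all genes. With single libraries left out, the interaction count of this list was between 3 and 7. Its count of genes changed by Act D in HCT 116p53-/- cells was then between 4 and 8.

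Of 28 genes that control p73 or are known to answer to it, 26 were tested. With vehicle 14 were higher and 8 lower in RPL3 KO-labelled libraries (35.1% and 36.2% of all genes, median log2 difference 0.38), among them ZEB1, a repressor of epithelial genes that is also one of the mesenchymal markers, at 24.96 against 1.66 CPM, and MYC, a transcription factor, at 15.3 against 385 CPM. Act D raised 3 and lowered 9 in HCT 116p53-/- cells (7.59% and 11.1% of all genes) and lowered 8 in the other line (8.4% of all genes), with median log2 responses of 0.01 and -0.11. In that line 0 of the 26 were raised by edgeR's quasi-likelihood test, where 2 were higher at an unadjusted p under 0.05, and 1 was raised by DESeq2. ITCH, the ubiquitin ligase that degrades p73, was lowered in both lines, from 145 to 99.0 CPM (log2 -0.55, adjusted p = 0.000192) and from 121 to 71.6 CPM (log2 -0.76, adjusted p = 2.3e-05). The interaction passed for 1 of the 26, beside 6.53% of all genes, EP300 (-0.48, adjusted p = 0.0441), which encodes a histone acetyltransferase. With single libraries left out, the EP300 call was lost in 10 of 12 fits.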

How the data were processed

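RNA was sequenced from both ends after preparation with a TruSeq RNA kit. The deposited values are RSEM 1.2.25 expected counts, which the authors made from trimmed paired-end reads on hg38 with Ensembl genes, without normalization. The TPM, which the authors computed within each library, and the deposited percent of each gene's transcripts were used only within libraries. The exception is RPL3, whose TPM were also set side by side between the lines. In 11 libraries values are per gene, and in replicate 2 of vehicle-treated HCT 116p53-/- cells per transcript (226788 transcripts), summed here. The study does not name its differential expression tool, and its FDR of 0.05 was used.

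Expected counts were rounded, filtered with filterByExpr (15692 of 33990 genes with any count) and scaled by TMM (factors 0.847 to 1.148). All 12 libraries were fitted in 1 model with edgeR 4.0.16 (R 4.3.3). Every adjusted p is from the quasi-likelihood test with Benjamini-Hochberg adjustment over all genes tested. Intervals are 95% intervals of that fit. CPM are TMM-normalized. Gene names and coordinates came from GENCODE 44 (60261 of 60617 identifiers matched) and promoters from RefSeq, with all 5 members matched. On simulated data for the comparison of the lines with vehicle (15307 genes), the test recovered 173 of 200 genes changed by a log2 of 1, with 5 false calls. That simulation gave all genes the same dispersion (0.0117) and changed only these 200, whereas 71.3% of genes differed in the data. Its recovery and false calls therefore do not describe the real comparison.

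The members, lists and tests were chosen with earlier results of these data known. Members were described in full. List genes were named by the 3 smallest p per comparison at a mean of at least 5 CPM, and not every gene named by this rule is given. A further gene of the rule is not reported here. SESN2, AEN, TRIAP1 and LIF were named together after their values were seen. The alternatives were DESeq2 1.42.0, the likelihood-ratio test, other scalings and filters, a replicate block, only the groups compared, CPM per length in place of TPM, and each library left out.

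Same-numbered libraries of different groups did not deviate together (18 pairs, r from -0.104 to 0.101, 1 over 0.1), and numbers of the Act D-treated libraries labelled RPL3 KO differ between titles and descriptions, so that the main fit has no block.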

Additional observations from a re-analysis of the deposited data

Results flagged for a closer look

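The response of MDM2 to Act D differed between the lines by the interaction term, at -1.47 on the log2 scale for the libraries labelled RPL3 KO minus HCT 116p53-/- cells (95% interval -1.75 to -1.19, edgeR adjusted p = 1.48e-05). MDM2 was higher with Act D in 3 of 3 treated libraries of HCT 116p53-/- cells and lower in 3 of 3 of the other line. PPM1D differed in the same direction, at -0.93 (95% interval -1.21 to -0.64, edgeR adjusted p = 0.000721), with a rise in HCT 116p53-/- cells and overlapping groups in the other line. Groups of 3 libraries were not tested for single outlying values. Without replicate 1 of the Act D-treated libraries labelled RPL3 KO, which stood apart from the other 2 of its group, the interaction was -1.42 for MDM2 and -0.94 for PPM1D (edgeR adjusted p = 0.000101 and 0.00309).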

How the results depend on the processing

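Of 495 values of the 5 genes under the alternatives, 492 kept their direction and side of the threshold. The exceptions were the fall of USP7 with Act D in HCT 116p53-/- cells, between -0.41 and -0.33 with single libraries left out, and the response of PPM1D in the libraries labelled RPL3 KO, which was not called and turned to -0.01 with library-size scaling (adjusted p = 0.964) and ranged from -0.01 to 0.16 with single libraries left out. Without the library deposited per transcript all calls of the 5 genes were kept. The interaction of MDM2 was between -1.61 and -1.41 and that of PPM1D between -1.02 and -0.85 over 19 alternatives. With replicate number as a block, all 25 member calls were kept (MDM2 -1.54 between the lines with vehicle), and the count of genes with an interaction was 722 in place of 1025. That count was between 614 and 979 with single libraries left out, and 630 without replicate 1 and 669 without replicate 2 of Act D-treated HCT 116p53-/- cells and 614 without replicate 1 of the Act D-treated libraries labelled RPL3 KO. The count of genes changed by Act D in HCT 116p53-/- cells was 2939, and from 1833 to 3389 with single libraries left out, with 1833 without replicate 1 and 1949 without replicate 2 of the treated cells. With only the groups compared, 8 rather than 13 p53 targets were past the threshold in the libraries labelled RPL3 KO. Library-size scaling moved the median of all genes between the lines from -0.021 to -0.261 with vehicle and from -0.02 to -0.263 with Act D, with 26.8% of genes then higher and 44.4% lower with vehicle and 27.0% and 43.5% with Act D. RPL3, not called in any comparison, turned to -0.11 and -0.13 between the lines with that scaling, and to 0.02 and 0.04 with Act D in HCT 116p53-/- cells and the other line and 0.02 for the interaction with upper-quartile scaling. With single libraries left out RPL3 reached 0.01 and 0.03 in those responses (from -0.03 and -0.09) and 0.04 (from -0.08) for the interaction. Of 1508 values of other genes 1457 were kept, 41 lost the call and 10 turned, and of 396 list counts 343 stayed within 1.5 times. The causes were not tested. Depth limits TP73 most, with 9 to 43 counts per library labelled RPL3 KO.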
